A study of Rattus norvegicus with 24 samples.

Results

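Immediate early genes were examined in rat neural stem cells and in cells differentiated from them with or without vitamin C. The 10 genes were taken from a fixed list by their symbols (Fos, Fosb, Jun, Junb, Egr1, Egr2, Egr3, Ier2, Arc and Nr4a1). All 10 were found among the 12187 genes of the expression table. The RNA came from Sprague-Dawley cells in 3 groups of 2 libraries each: differentiated cells given vitamin C (labelled VC+), differentiated cells without vitamin C (VC-), and the undifferentiated neural stem cells (D0). In the differentiated cells the replicate 1 libraries carry a D4 label and the replicate 2 libraries a D5 label, so the replicate number and that label cannot be told apart. Nothing in the labels ties a replicate to its own culture or animal. The p-values therefore measure only how far these libraries spread, which may be technical. The other 18 of the 24 samples, which are MBD-seq, hMeDIP-seq, ChIP-seq and input libraries, were not analysed here.

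Immediate early genes are switched on within minutes of a stimulus, such as a growth factor, calcium entry or cell stress, without the need for new protein synthesis, and their RNAs are short-lived. Serum response factor with its ternary complex partners acts at CArG boxes, and CREB acts at cAMP response elements. Fos and Jun family proteins pair to form AP-1, EGR proteins are zinc finger factors, Nr4a1 is an orphan nuclear receptor, and Arc acts at synapses. In brain tissue these genes are widely used as markers of recent neuronal activity, and in dividing cells they are part of the growth factor response.

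Promoter windows are shown for 4 members in which CArG boxes or the core of the cAMP response element were found. That of Junb, which also held the core, is not shown. RefSeq promoter windows of the GRCr8 build, 250 bases before to 50 bases after a gene's start, matched 6 of the 10 members (Fosb, Junb, Egr1, Egr2, Ier2 and Nr4a1); Fos, Jun, Egr3 and Arc were not analysed here for sequence. The capitals below mark CArG boxes and the core of the cAMP response element, TGACG or its reverse complement CGTCA. The windows are chr18:26736828-26737127 on the plus strand for Egr1, chr20:21054392-21054691 on the minus strand for Egr2, chr19:40399123-40399422 on the plus strand for Ier2 and chr7:134259888-134260187 on the plus strand for Nr4a1. Each is printed 5′ to 3′.
Egr1: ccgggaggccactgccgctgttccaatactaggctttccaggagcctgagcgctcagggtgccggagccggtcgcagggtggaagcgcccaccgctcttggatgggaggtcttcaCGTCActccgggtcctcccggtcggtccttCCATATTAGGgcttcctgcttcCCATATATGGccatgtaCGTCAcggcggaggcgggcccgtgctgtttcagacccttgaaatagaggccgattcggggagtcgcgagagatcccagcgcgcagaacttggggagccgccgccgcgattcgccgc
Egr2: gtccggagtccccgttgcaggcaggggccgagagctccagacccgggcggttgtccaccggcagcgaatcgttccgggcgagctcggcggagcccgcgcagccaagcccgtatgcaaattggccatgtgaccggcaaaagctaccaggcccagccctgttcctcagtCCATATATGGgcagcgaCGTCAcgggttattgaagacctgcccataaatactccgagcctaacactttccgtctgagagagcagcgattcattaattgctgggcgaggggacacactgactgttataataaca
Ier2: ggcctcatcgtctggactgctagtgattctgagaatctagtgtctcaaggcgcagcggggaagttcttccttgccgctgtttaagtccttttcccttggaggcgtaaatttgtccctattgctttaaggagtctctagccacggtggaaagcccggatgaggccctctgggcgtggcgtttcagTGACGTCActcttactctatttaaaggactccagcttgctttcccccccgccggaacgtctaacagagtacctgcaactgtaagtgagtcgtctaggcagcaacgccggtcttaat
Nr4a1: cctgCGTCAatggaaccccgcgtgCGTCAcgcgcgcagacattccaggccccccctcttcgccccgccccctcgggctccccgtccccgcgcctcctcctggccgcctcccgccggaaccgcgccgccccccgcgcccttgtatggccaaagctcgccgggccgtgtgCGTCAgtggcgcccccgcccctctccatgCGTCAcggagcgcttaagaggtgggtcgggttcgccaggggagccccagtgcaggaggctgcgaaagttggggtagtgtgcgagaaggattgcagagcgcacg

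The Egr1 and Egr2 windows share an arrangement. Counted from the gene's start, both hold a CArG box from -83 to -74 and CGTCA from -66 to -62. Egr1 has a further CArG box from -105 to -96 and a further CGTCA from -135 to -131. CArG boxes were found in 1.64% of all 33469 rat promoter windows. Ier2 holds the full palindrome TGACGTCA from -66 to -59, present in 1.83% of windows, and Nr4a1 holds CGTCA at 4 places. TGACG on either strand, which overlaps the full palindrome, was in 21.2% of windows. The Junb window held TGACG once, and the Fosb window held none of the motifs searched. The AP-1 element TGANTCA, in 7.33% of windows, was in none of the 6, and GCGNGGGCG, an EGR element found in 4.98%, was in that of Nr4a1. A match describes these letters and does not show that a factor was bound.

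Libraries held 4811094 to 6641721 reads over the listed genes in replicate 1 and 10299321 to 13184601 in replicate 2. Values are in CPM, reads scaled to a fixed library total by the authors, and 1 read was worth 0.0468 to 0.126 CPM. A count of 0 allows up to 3 reads, or 0.140 to 0.378 CPM. The replicate sets also differed in the genes of other cell types. The 18 microglia and macrophage markers summed to 6.79 to 8.32 CPM in replicate 1, where Itgam was at 0 in all 3 libraries, and to 984 to 1940 CPM in replicate 2. The 16 fibroblast, pericyte and meningeal markers summed to 1022 to 1214 CPM in replicate 1 and to 4885 to 12374 CPM in replicate 2. Of the 15 of them that entered the tests, 13 were higher and 1 lower in replicate 2 in all 3 groups. Among all genes tested 32.5% were higher and 31.8% lower in that way. Col1a1 was at 39.1 to 115 CPM in replicate 1 and 1759 to 5968 CPM in replicate 2, and Pdgfra at 53.2 to 539 CPM and 193 to 381 CPM. In differentiated cells the 14 oligodendrocyte markers summed to 9949 CPM with and 13219 CPM without vitamin C in replicate 1, and to 725 and 851 CPM in replicate 2. All 12 neural stem cell markers, Sox2 and Nes among them, were detected in every library. The part of these differences in the results on immediate early genes was not tested. In RNA from whole cultures, fewer cells of a type and less RNA per cell cannot be told apart.

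The vitamin C difference in the immediate early genes of differentiated cells was not the same in the replicate sets. In replicate 1 vitamin C went with lower values for all 10 genes, where 48.5% of all 11823 genes tested were lower. In replicate 2, 5 of the 10 were higher, where 52.8% of all genes were, and 5 were lower, where 47.2% were. Beyond counting error, 8 were lower in replicate 1 (21.3% of all genes), and in replicate 2, 3 were higher (27.6%) and 2 lower (22.0%). The median log2 difference of the 10 genes was -1.54 in replicate 1 and 0.0088 in replicate 2, against 0 and 0.020 over all genes. In replicate 1 cells without vitamin C were the highest of the 3 groups for 9 members, against 29.9% of all genes. No member passed the limma test between the groups. The 12 astrocyte markers summed higher with vitamin C in both sets, to 5734 and 7360 CPM with it, against 2150 and 3050 CPM without it, and none of them was at 0 in any library. Of these markers 7 were higher in both sets, where 30.0% of all genes were, and 1 was lower in both, where 26.4% were. Groups did not overlap for 7, all higher, where 8.15% of all genes were higher that way. In limma 0 of the markers passed the test. Their part in the values of the immediate early genes was not tested.

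**Figure D1:**
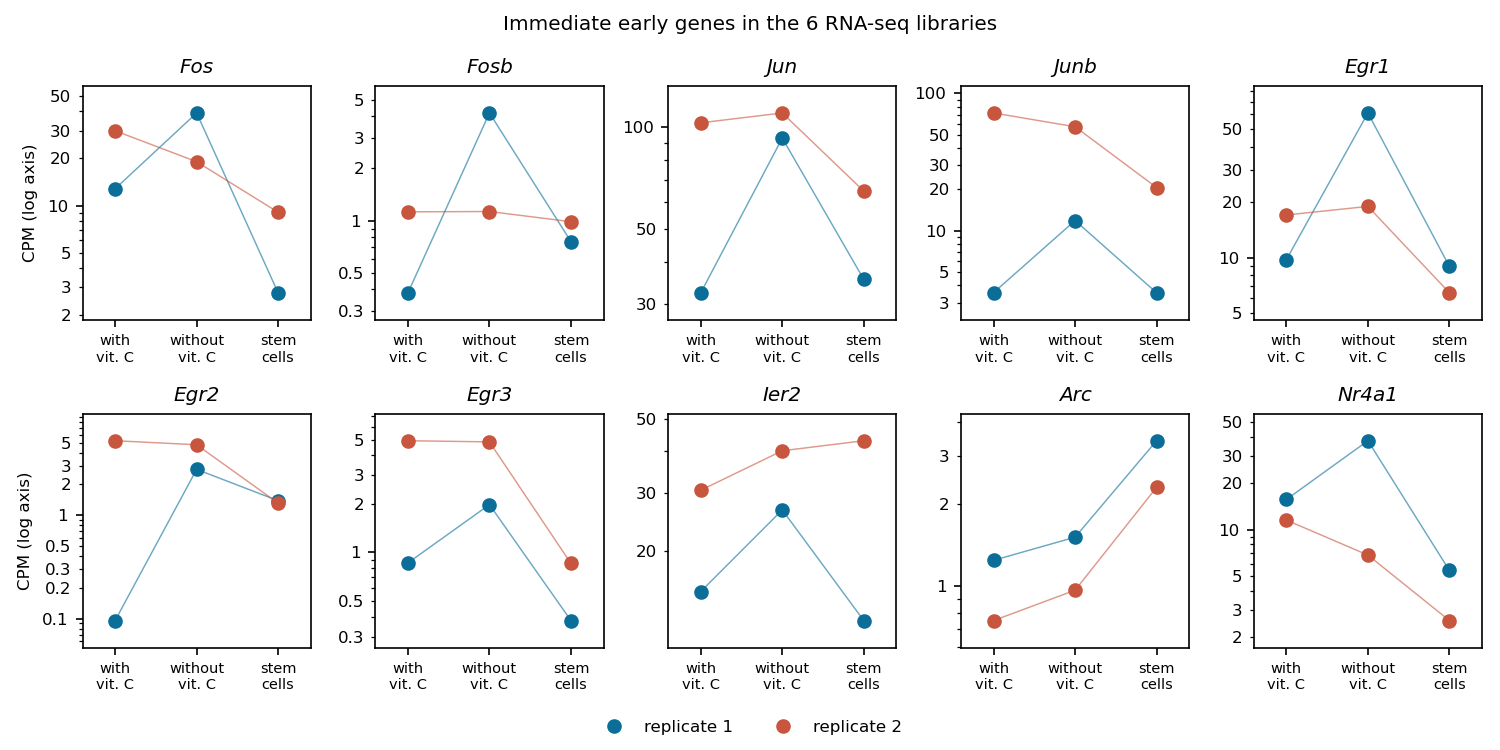
CPM (log axis, a separate scale per gene) of the 10 immediate early genes in each of the 6 libraries, with differentiated cells with vitamin C, differentiated cells without it and stem cells from left to right. Points are single libraries, and thin lines join libraries of the same replicate number. In replicate 1 the cells without vitamin C were highest for all genes but Arc, while in replicate 2 the cells with and without vitamin C lay close together for most genes.

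Among the AP-1 genes, Fos, the founding Fos family gene, stood at 12.8 CPM in replicate 1 and 30.1 CPM in replicate 2 with vitamin C, against 39.1 and 19.1 CPM without it. The 2 groups overlapped, because vitamin C went with the lower value in replicate 1 and with the higher one in replicate 2. The CPM ratio with over without vitamin C was 0.328 in replicate 1 (exact 95% counting interval 0.267 to 0.402) and 1.58 in replicate 2 (1.38 to 1.80). These intervals, like the limit on a count of 0, cover the counting of reads in 1 library against 1 and not the spread between cultures. Fosb, a close relative of Fos, was low throughout, with 0.383 and 1.12 CPM with vitamin C and 4.19 and 1.13 CPM without it. Its difference lay in replicate 1, where 4 reads stood against 36, a ratio of 0.0914 (0.0236 to 0.255), while the ratio in replicate 2 was 0.996 (0.531 to 1.88).

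Jun, the partner of Fos proteins in AP-1, was at 32.3 and 103 CPM with vitamin C and at 93.0 and 110 CPM without it. Both sets were lower with vitamin C, by a ratio of 0.348 (0.305 to 0.395) in replicate 1 and of 0.935 (0.880 to 0.993) in replicate 2. Junb, a Jun family member that can restrain Jun, was at 3.54 and 72.0 CPM with vitamin C and at 11.9 and 57.2 CPM without it. Its ratio was 0.299 (0.199 to 0.439) in replicate 1 and 1.26 (1.16 to 1.36) in replicate 2, opposite directions that both lay beyond counting error.

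Of the EGR genes, Egr1, a growth factor and activity response factor, had 9.76 and 17.0 CPM with vitamin C, against 61.0 and 19.0 CPM without it. The groups did not overlap, but the gap came mainly from the replicate 1 library without vitamin C, with a ratio of 0.160 (0.128 to 0.198) in replicate 1 and 0.899 (0.774 to 1.04) in replicate 2. Egr2, known for its role in Schwann cell myelination, was at 0.0957 and 5.29 CPM with vitamin C and at 2.79 and 4.84 CPM without it. Its replicate 1 value with vitamin C rests on 1 read against 24, a ratio of 0.0343 (0.000834 to 0.210), and its ratio in replicate 2 was 1.09 (0.822 to 1.46). Egr3, which acts downstream of calcium signals, had 0.861 and 4.92 CPM with vitamin C and 1.98 and 4.84 CPM without it. Neither set showed a difference beyond counting for Egr3, with ratios of 0.436 (0.171 to 1.03) and 1.02 (0.760 to 1.36).

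Nr4a1 followed Fos in its direction by set, with 15.7 and 11.5 CPM with vitamin C and 37.8 and 6.82 CPM without it. The ratio was 0.415 (0.342 to 0.503) in replicate 1 and 1.69 (1.36 to 2.11) in replicate 2. Ier2, a growth factor response gene, was lower with vitamin C in both sets, at 15.1 and 30.5 CPM against 26.6 and 40.1 CPM without it. Its ratios were 0.568 (0.461 to 0.698) and 0.761 (0.684 to 0.846). Arc was near the limit of the counts, with 1.24 and 0.749 CPM with vitamin C and 1.51 and 0.967 CPM without it, from 13 to 18 reads per library, and both intervals of its ratio held 1.

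**Figure D2:**
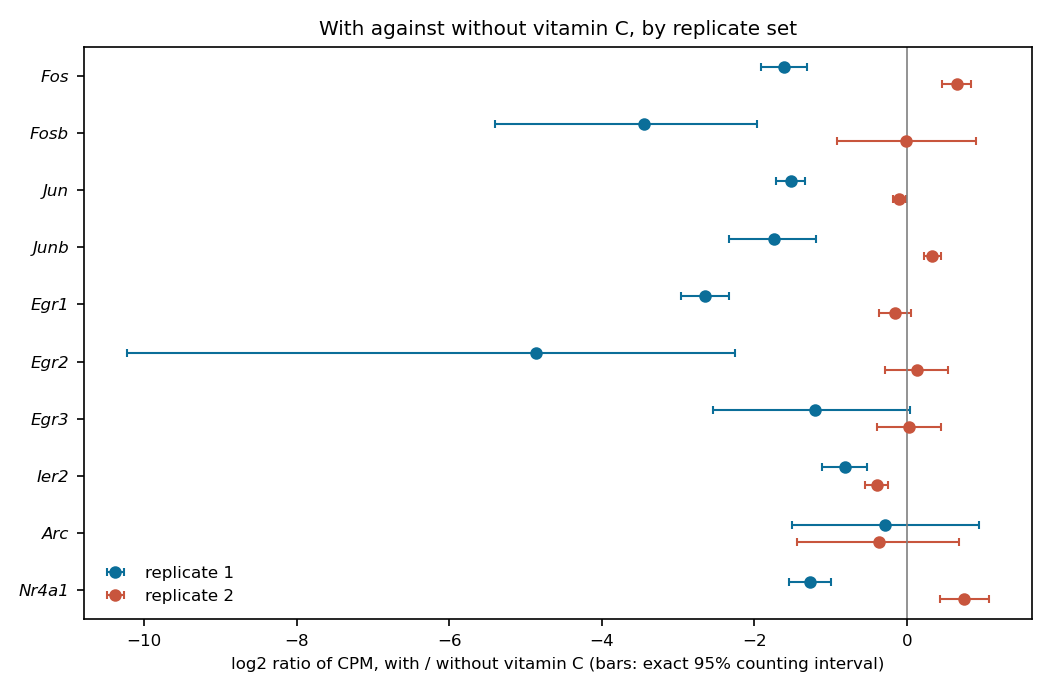
Log2 ratio of CPM with over without vitamin C (horizontal axis) for each gene, in replicate 1 and replicate 2. Bars are exact 95% counting intervals. In replicate 1 the intervals of 8 genes lay below 0, those of Egr3 and Arc excepted, and in replicate 2 those of Fos, Junb and Nr4a1 lay above 0 and those of Jun and Ier2 below it.

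Over both sets, limma on log2(CPM + 0.5), which understates the change of low genes, gave for vitamin C a difference of -1.37 (SE 0.65) for Egr1, -1.21 (SE 0.80) for Fosb, -1.17 (SE 1.17) for Egr2 and -0.80 (SE 0.62) for Jun. For the other 6 members the differences ran from -0.64 (SE 1.68) for Junb to -0.22 (SE 0.60) for Arc. Each member had a limma adjusted p of 1.00 over all genes tested, and the smallest unadjusted limma p was 0.0882, for Egr1. Over all 11823 genes limma made 0 calls (0%) and gave 62 unadjusted p-values under 0.05, so the absence of member calls does not set the members apart. With the replicate number as a term, limma again called 0 genes (404 unadjusted) and no member, the smallest unadjusted limma p being 0.0690 for Egr1. With that term it called 8 genes when stem cell replicate 1 was left out and 24 when stem cell replicate 2 was, again no member. On whole reads edgeR called 0 genes without that term (66 unadjusted) and 0 with it (435), while DESeq2 called 6 genes (0.0507%) without it and 32 (0.271%) with it, none of them a member. Groups did not overlap for 2 of the 10 members, against 16.0% of all genes in either direction. These were Fosb and Egr1, both lower with vitamin C, where 7.82% of all genes were lower that way. For Fosb the replicate 2 values were nearly equal, at 1.12 CPM with and 1.13 CPM without vitamin C, from 24 and 21 reads. Members that were lower with vitamin C in both sets numbered 5 (Fosb, Jun, Egr1, Ier2 and Arc), where 26.4% of all genes were. Beyond counting error, 2 members, Jun and Ier2, went the same way in both sets, both lower, as did 17.6% of all genes in either direction. The median of the fitted differences was -0.62 over the members and 0.018 over all genes. Leaving out 1 library of the vitamin C cells gave -0.035 for their replicate 1 and -1.52 for their replicate 2. Those fits have no replicate term, so the vitamin C library that is left is compared across replicate sets. Fos, Junb and Nr4a1 were lower in replicate 1 and higher in replicate 2, each beyond counting error, as were 4.09% of all genes, and 8.34% of all genes went opposite ways in either order. No test of that difference between sets could be fitted, since each set has 1 library per group.

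Differentiated cells without vitamin C had higher values of most immediate early genes than stem cells. In replicate 1, 9 of the 10 members were higher, where 48.3% of all genes were, and in replicate 2, 8 were, where 50.6% were. Arc was lower in both sets. No member passed the limma test here either. The 14 oligodendrocyte markers also summed higher, to 13219 and 851 CPM without vitamin C, against 2118 and 588 CPM in stem cells, where Mobp was at 0 in replicate 2. Of these markers 11 were higher in both sets, where 28.6% of all genes were. They had a median log2 difference of 2.97 and 0 limma calls, and their part in the results was not tested.

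Fos had 39.1 and 19.1 CPM without vitamin C, against 2.77 and 9.07 CPM in stem cells. All values of the differentiated cells lay above those of stem cells, with ratios of 14.1 (9.15 to 22.8) in replicate 1 and 2.10 (1.72 to 2.58) in replicate 2. Egr1 had 61.0 and 19.0 CPM against 8.95 and 6.44 CPM in stem cells, ratios of 6.82 (5.31 to 8.86) and 2.95 (2.35 to 3.72). For Nr4a1 the values were 37.8 and 6.82 CPM without vitamin C and 5.42 and 2.56 CPM in stem cells, ratios of 6.97 (5.06 to 9.81) and 2.66 (1.85 to 3.92). The ratios of these 3 genes were larger in replicate 1 than in replicate 2, with intervals that did not meet. Jun stood at 93.0 and 110 CPM against 35.4 and 64.8 CPM in stem cells, and Junb at 11.9 and 57.2 CPM against 3.53 and 20.6 CPM. The Junb groups overlapped, since its replicate 2 stem cells exceeded its replicate 1 differentiated cells, although the ratio was near 3 in each set, at 3.36 (2.19 to 5.30) and 2.77 (2.44 to 3.15).

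The low EGR genes were also higher. Egr3 had 1.98 and 4.84 CPM without vitamin C against 0.378 and 0.854 CPM in stem cells, where it rested on 3 and 13 reads. The ratios were 5.22 (1.51 to 27.8) and 5.66 (3.15 to 11.0). Egr2 had 2.79 and 4.84 CPM against 1.39 and 1.31 CPM, and Fosb 4.19 and 1.13 CPM against 0.757 and 0.985 CPM. For Egr2 the counting interval of the ratio excluded 1 in replicate 2 only (2.25 to 6.31), and for Fosb in replicate 1 only (2.31 to 16.1). Ier2 differed in direction by set, with 26.6 and 40.1 CPM without vitamin C against 12.4 and 43.0 CPM in stem cells. Arc, the synaptic gene of the list, had 1.51 and 0.967 CPM against 3.41 and 2.30 CPM, ratios of 0.444 (0.210 to 0.890) and 0.421 (0.224 to 0.763).

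In limma the difference without vitamin C minus stem cells was 2.31 (SE 0.74) for Fos, 2.10 (SE 0.65) for Egr1, 1.98 (SE 0.88) for Nr4a1 and 1.74 (SE 0.91) for Egr3. Unadjusted limma p-values were 0.0260 for Fos and 0.0227 for Egr1, and every member had an adjusted p of 1.00. Without a replicate term limma called 0 of 11823 genes (0%, 382 unadjusted), edgeR 0 (384 unadjusted) and DESeq2 71 (0.601%), none of them a member. Calls with that term, which differ in DESeq2, are given in the closing section. Groups did not overlap for 8 of the 10 members, against 26.9% of all genes. These were 7 higher members (13.8% of all genes) and Arc, which was lower (13.2%). Higher in both sets were 8 members, Junb included, against 28.6% of all genes. The median over the members was 1.36 (1.56 in replicate 1 and 1.15 in replicate 2), against 0.0078 over all genes. Fosb and Egr3 reached 1 CPM only in libraries of differentiated cells, so they entered the test through those groups.

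With vitamin C the gap to stem cells was not the same in the replicate sets either. In replicate 1, 6 of the 10 members were higher than in stem cells and 4 lower, where 49.0% of all genes were higher, and the median of the members was 0.061. In replicate 2, 8 were higher, where 50.4% of all genes were, with a median of 1.51. In replicate 1 the counting intervals of Fosb, Jun, Junb, Egr1, Egr3 and Ier2 held a ratio of 1. The oligodendrocyte markers summed to 9949 and 725 CPM with vitamin C against 2118 and 588 CPM in stem cells, and the astrocyte markers to 5734 and 7360 CPM against 1878 and 2962 CPM. Of the 14 oligodendrocyte markers 10 were higher and 1 lower in both sets, and of the 12 astrocyte markers 7 were higher and 3 lower. Among all genes 28.6% were higher and 29.0% lower in both sets. The part of these markers in these results was not tested.

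**Figure D3:**
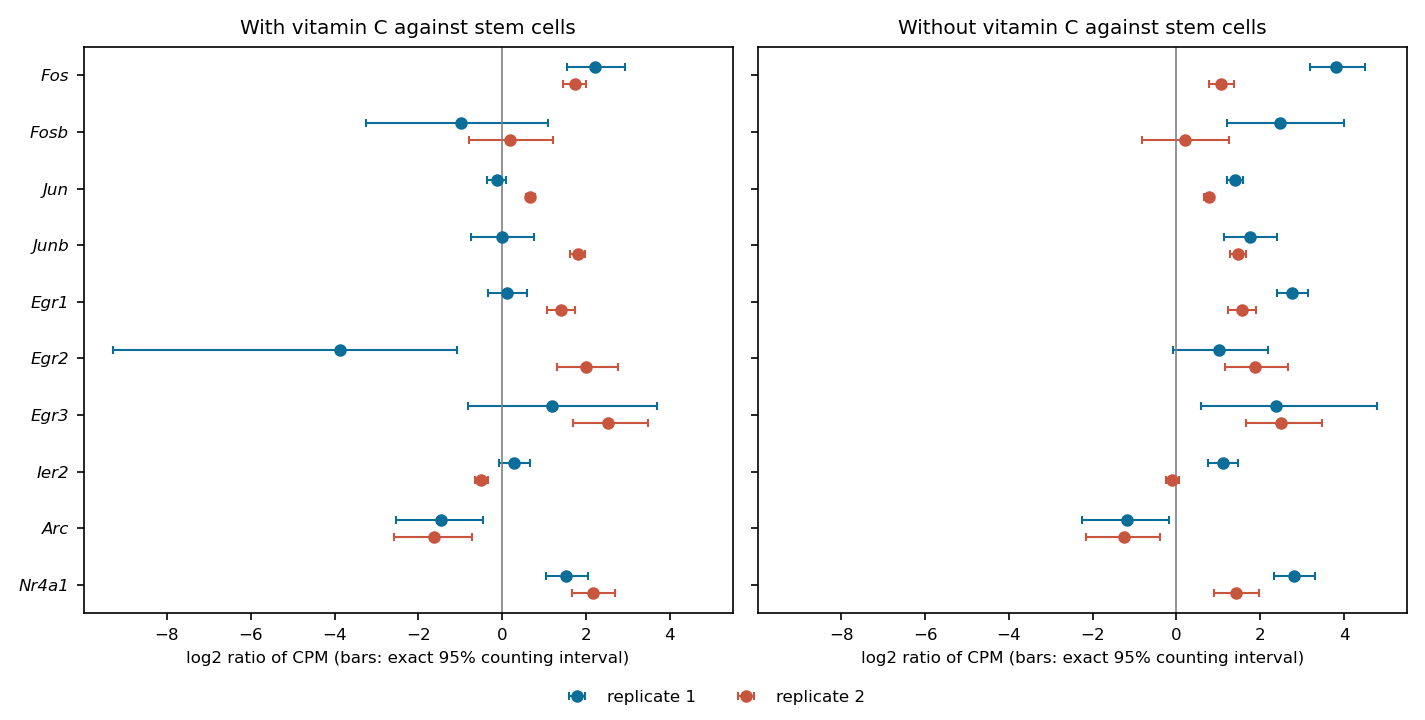
Log2 ratio of CPM against stem cells for cells with vitamin C (left) and without it (right), in replicate 1 and replicate 2, with exact 95% counting intervals. Both panels use the same stem cell libraries. With vitamin C, Fos and Nr4a1 lay above 0 and Arc below it in both sets, while the intervals of Jun, Junb, Egr1, Egr2 and Egr3 lay above 0 in replicate 2 only. The interval of Ier2 lay below 0 in replicate 2, and that of Egr2 in replicate 1.

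Fos and Nr4a1 were higher than in stem cells in both sets. Fos had 12.8 and 30.1 CPM with vitamin C against 2.77 and 9.07 CPM in stem cells, ratios of 4.62 (2.93 to 7.62) and 3.32 (2.75 to 4.01). Nr4a1 had 15.7 and 11.5 CPM against 5.42 and 2.56 CPM, ratios of 2.89 (2.06 to 4.15) and 4.50 (3.20 to 6.48). Jun, Junb, Egr1 and Egr3 were higher beyond counting error in replicate 2 alone, and Egr2 differed in opposite directions. Junb matched stem cells in replicate 1, at 3.54 against 3.53 CPM, and was at 72.0 against 20.6 CPM in replicate 2. Egr1 had 9.76 and 17.0 CPM against 8.95 and 6.44 CPM, and Jun 32.3 and 103 CPM against 35.4 and 64.8 CPM. Egr2 had 0.0957 against 1.39 CPM in replicate 1 and 5.29 against 1.31 CPM in replicate 2. Egr2 was lower in the first set and higher in the second, with ratios of 0.0690 (0.00160 to 0.475) and 4.03 (2.49 to 6.84), and 13.9% of all genes went opposite ways beyond counting error. Egr3 had 0.861 and 4.92 CPM with vitamin C against 0.378 and 0.854 CPM in stem cells, with a ratio beyond counting in replicate 2 only, at 5.76 (3.22 to 11.2).

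Ier2 had 15.1 and 30.5 CPM with vitamin C against 12.4 and 43.0 CPM in stem cells, and Fosb 0.383 and 1.12 CPM against 0.757 and 0.985 CPM. Both genes had overlapping groups. Ier2 was lower beyond counting error in replicate 2, with a ratio of 0.709 (0.636 to 0.792), and its replicate 1 interval held 1. Both intervals of Fosb held 1. Arc was lower with vitamin C in both sets, at 1.24 and 0.749 CPM against 3.41 and 2.30 CPM, with ratios of 0.365 (0.173 to 0.733) and 0.326 (0.168 to 0.604).

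Limma gave 1.85 (SE 0.74) for Fos, 1.71 (SE 0.88) for Nr4a1 and -1.16 (SE 0.60) for Arc in cells with vitamin C minus stem cells, with an adjusted p of 1.00 for every member. Without a replicate term it called 0 of 11823 genes (0%, 507 unadjusted), edgeR called 0 (505 unadjusted) and DESeq2 137 (1.16%), none of them a member. Calls with that term, which differ in DESeq2, are given in the closing section. Groups did not overlap for 5 members, against 27.4% of all genes. Fos, Egr1, Egr3 and Nr4a1 were higher (14.2% of all genes) and Arc was lower (13.2%). Egr3 reached 1 CPM only in libraries of differentiated cells, so it entered the test through those groups. In stem cells it rested on 3 and 13 reads. Higher in both sets were 5 members, against 28.6% of all genes, and lower in both was Arc, against 29.0%. The median of the fitted differences over the members, 0.50 against 0.013 over all genes, changed when single libraries were left out. Leaving out vitamin C replicate 2 gave -0.58, leaving out vitamin C replicate 1 gave 1.31, and leaving out stem cell replicate 1 gave -0.064. These fits have no replicate term, so the group left with 1 library is compared across replicate sets. Within the sets the medians were 0.061 in replicate 1 and 1.51 in replicate 2.

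Several members also differed between the replicate sets within every group. Junb was at 72.0, 57.2 and 20.6 CPM in replicate 2 (with vitamin C, without it and in stem cells), against 3.54, 11.9 and 3.53 CPM in replicate 1. Ier2 was at 30.5, 40.1 and 43.0 CPM in replicate 2, against 15.1, 26.6 and 12.4 CPM in replicate 1. In a limma fit with group and replicate terms, replicate 2 minus replicate 1 was 2.93 (SE 0.43, adjusted p 0.0134) for Junb and 1.11 (SE 0.26, adjusted p 0.0406) for Ier2. These were the members called, 2 of 10 where 25.1% of all genes were called in either direction and 17.4% higher, so the share is near that of all genes. Jun (0.92, SE 0.29) and Egr3 (1.24, SE 0.38) were also higher in all 3 groups without passing, with adjusted p of 0.0734 and 0.0719 in limma. Nr4a1 and Arc were lower in replicate 2 in all 3 groups, by -1.26 (SE 0.42, adjusted p 0.0879) and -0.47 (SE 0.29, adjusted p 0.265) in limma. The Junb call was lost without replicate 1 or replicate 2 of the cells lacking vitamin C (adjusted p 0.0823 and 0.0766 in limma), and the Ier2 call without any 1 library of the differentiated cells (0.110 to 0.146).

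The members differed among themselves in their profile over the 6 libraries. Likeness was measured as the root mean square difference of log2(CPM + 0.5) profiles, each centred on its own mean, as a description of 6 libraries. Jun lay nearest to the mean profile of the 10 genes (0.21), and Junb (1.20), Arc (1.13) and Nr4a1 (1.05) lay farthest from it. Outside the list the nearest genes to that mean were Sat1, which encodes a polyamine acetyltransferase (0.19), Dusp1, an immediate early phosphatase that inactivates MAP kinases (0.26), St8sia3 (0.27), Bcl2l1 (0.27), Trex1 (0.28) and C2cd4c (0.28). Egr1 alone had Sept4 (0.34), Hapln2 (0.36), Pllp (0.41), Drd2 (0.46), S100a3 (0.49) and Cdc42ep2 (0.50) as its nearest genes. For Fos alone they were Fbll1 (0.35), Adap1 (0.43), Mapt (0.45), Pcp4 (0.47), Olfml2a (0.47) and Lrrc73 (0.47). Hapln2 and Pllp are known as genes of myelinating oligodendrocytes, a lineage whose markers summed higher in replicate 1 (above). Of its 14 markers, 6 were higher and 7 lower with than without vitamin C in both sets, with a replicate 1 median of -0.13. Among all genes 30.0% were higher and 26.4% lower in both sets. Hapln2 was at 0.378 to 0.574 CPM in stem cells and in replicate 1 with vitamin C. The part of that lineage in the Egr1 values was not tested.

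Related genes were described from further lists, by counts and medians. None of their genes passed the limma test in any of the 3 group comparisons, as was the case for all genes tested. With against without vitamin C, the 12 other AP-1 and ATF genes had medians of -0.074 in replicate 1 and 0.015 in replicate 2. The 14 other immediate early transcription factors had -0.45 and 0.18, and the 29 other immediate early effectors -0.43 and -0.14. Of these effectors 16 were lower in both sets, where 26.4% of all genes were. Plk3, a stress-response kinase, was at 4.02 and 7.26 CPM with vitamin C and at 14.3 and 7.79 CPM without it, a gap that, like that of Egr1, lay mainly in replicate 1. Mcl1, which protects from cell death, was at 56.1 and 55.3 CPM with vitamin C and at 50.0 and 47.1 CPM without it.

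**Figure D4:**
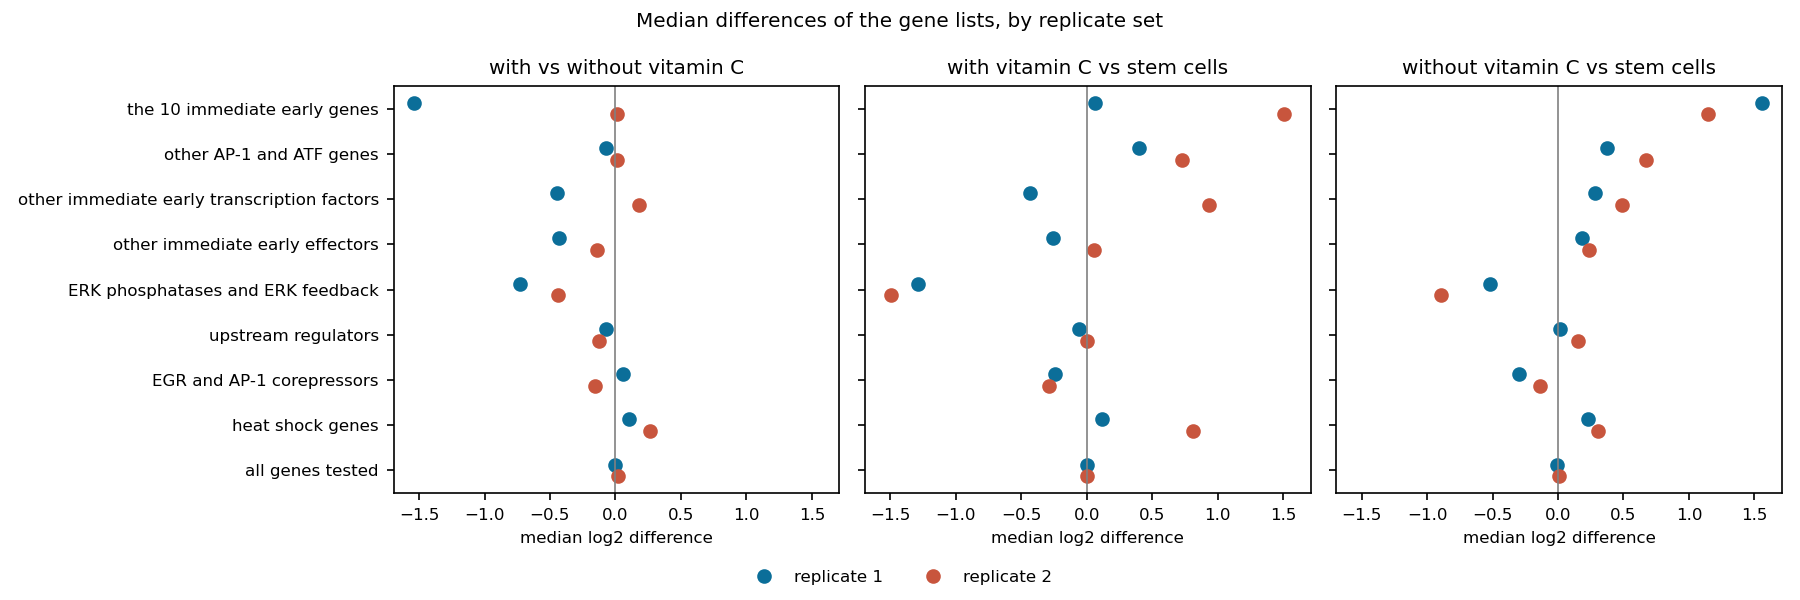
Median log2 difference (horizontal axis, log2(CPM + 0.5) scale) of each gene list in replicate 1 and replicate 2, for the 3 comparisons. The 10 immediate early genes had medians of -1.54 and 0.0088 for vitamin C, and the ERK feedback list lay below 0 in both sets of every comparison.

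Against stem cells, the other AP-1 and ATF genes were higher in both sets for 9 of 12 genes with vitamin C and for 11 of 12 without it, where 28.6% of all genes were in each comparison. Jund, an AP-1 subunit, stood at 72.5 and 117 CPM with vitamin C and at 111 and 113 CPM without it, against 43.6 and 75.9 CPM in stem cells. Jdp2, a repressor of AP-1, had 15.3 and 17.8 CPM with vitamin C, 8.49 and 17.9 CPM without it and 4.54 and 10.2 CPM in stem cells. Srf, the factor that binds CArG boxes, was at 57.7 and 82.5 CPM with vitamin C and at 57.5 and 75.5 CPM without it, above the 44.6 and 41.5 CPM of stem cells. Its groups did not overlap with stem cells, which was 1 of the grounds for naming it. Of all genes 14.2% with vitamin C and 13.8% without it were higher than stem cells without overlap. The limma difference of Srf without vitamin C minus stem cells was 0.61 (SE 0.28, adjusted p 1.00). Among the effectors, Sgk1, a serum-induced kinase, had 86.5 and 22.1 CPM with and 60.5 and 22.4 CPM without vitamin C, against 6.68 and 14.7 CPM in stem cells. Plk2, a relative of Plk3, and Btg2, an antiproliferative gene, went the other way. Plk2 had 17.3 and 22.5 CPM with vitamin C and 19.2 and 31.2 CPM without it, against 91.3 and 55.8 CPM in stem cells. Btg2 had 96.4 and 37.9 CPM with it, 139 and 54.8 CPM without it and 220 and 162 CPM in stem cells.

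Targets and feedback inhibitors of ERK, the kinase that drives many immediate early genes through ternary complex factors, had lower values in differentiated cells for most of the genes listed, none of which passed the limma test. Of 13 ERK phosphatase and feedback genes, 12 were lower with vitamin C than in stem cells in both sets, where 29.0% of all genes were, and 10 were lower without vitamin C, where 29.5% were. Dusp1 was the 1 gene higher than stem cells in both sets of each comparison. It had 3.16 and 9.36 CPM with vitamin C and 8.14 and 8.11 CPM without it, against 3.03 and 6.96 CPM. Spry1, an inhibitor of receptor tyrosine kinase signalling, had 7.85 and 13.0 CPM with vitamin C and 15.6 and 26.7 CPM without it, against 53.1 and 141 CPM in stem cells. Etv4, an ETS factor induced by FGF signalling, had 19.2 and 7.26 CPM with vitamin C, 31.2 and 14.7 CPM without it and 111 and 132 CPM in stem cells. Etv5 had 61.2 and 31.0 CPM with vitamin C and 133 and 42.1 CPM without it, against 464 and 226 CPM. For these 3 genes all 4 libraries of differentiated cells lay below both stem cell libraries, and their limma differences with vitamin C minus stem cells were -3.04 (SE 0.59), -3.30 (SE 0.58) and -2.88 (SE 0.71), with adjusted p from 0.974 to 1.00. All 3 were named at least in part because their groups did not overlap with stem cells, so that separation is not a separate result. Of all genes 13.2% were lower without overlap in each of the 2 comparisons with stem cells. Of the same 13 genes 10 were lower with than without vitamin C in both sets, where 26.4% of all genes were. Dusp4, an ERK phosphatase, had 2.49 and 3.75 CPM with vitamin C and 5.58 and 5.27 CPM without it. These comparisons share libraries and are not independent of each other.

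The 25 upstream regulators had fitted medians of -0.12 for vitamin C, -0.026 for cells with vitamin C minus stem cells and 0.059 for cells without it minus stem cells. For vitamin C 15 of the 25 were lower in both sets, where 26.4% of all genes were, and without vitamin C 13 were higher than stem cells in both sets, where 28.6% of all genes were. Within that list Egfr, the EGF receptor, had 69.7 and 20.8 CPM with vitamin C and 85.0 and 27.2 CPM without it, against 194 and 132 CPM in stem cells. Ntrk2, the BDNF receptor, had 892 and 760 CPM with vitamin C, against 577 and 546 CPM without it. The 9 corepressors of EGR and AP-1 factors had a fitted median of -0.069 for vitamin C, and the 11 heat shock genes, among which Hspb1 had 9.47 and 27.2 CPM with vitamin C against 6.16 and 2.96 CPM without it, had 0.22.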

How the data were processed

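The deposited table gives CPM per gene for 6 RNA-seq libraries, as scaled by the authors. Libraries were made with a TruSeq RNA kit, per the labels' protocols. Tools named in the submitters' processing notes, with no role given, are edgeR 3.12.1, STAR 2.5.1, HOMER 4.9.1, CASAVA 1.7, deepTools 2.4.2 and Bowtie2 2.1.0, and the build is rn5. The counter, strand setting, annotation and gene filter are not given in the sources used here, so antisense or overlapping genes cannot be told apart.

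In each library the values were whole multiples of 1 step (100% of them, relative tolerance 1e-06), which recovered whole reads. Listed genes took 60.2% to 67.7% of the total used by the authors. The 11823 genes that reached 1 CPM in 2 or more libraries entered a two-sided limma fit (limma 3.58.1 in R 4.3.3, with trend) on log2(CPM + 0.5). All 3 groups shared that fit, with 3 residual degrees of freedom, and a call is a Benjamini-Hochberg adjusted p under 0.05 over all genes. No permutation test was run, because 2 libraries against 2 give an exact p of 0.333 at best. Cells with and without vitamin C share both replicate number and D label, which pairs them, and their deviations correlated at 0.914 across genes. The settings changed in turn were the pseudocount (0.1, 2), the filter (none, 5 CPM), median-of-ratios scaling, the trend, a replicate term (2 residual degrees of freedom), the tool (edgeR 4.0.16 or DESeq2 1.42.0, run on recovered reads) and the library left out. The code was tested on simulated counts.

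Members and lists were chosen with earlier results of these data known. The rule for genes named from each further list took the 2 of highest mean CPM and, per comparison, up to 2 with the largest difference among those whose groups did not overlap and whose higher group averaged 5 CPM or more; the text describes some of them. Counting intervals are exact binomial intervals on reads. Promoter windows are RefSeq's (GRCr8).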

Additional observations from a re-analysis of the deposited data

Results flagged for a closer look

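The difference between the libraries with and without vitamin C ran in opposite directions in the replicate sets labelled D4 and D5 for 3 members, each beyond counting error. The CPM ratio with over without vitamin C was 0.328 in replicate 1 and 1.58 in replicate 2 for Fos, 0.299 and 1.26 for Junb, and 0.415 and 1.69 for Nr4a1. Opposite directions beyond counting error were found for 8.34% of all genes tested in this comparison. Egr2 did so for cells with vitamin C over stem cells, with a CPM ratio of 0.0690 in replicate 1, where 1 read stood against 11, and of 4.03 in replicate 2, as did 13.9% of all genes tested. These differences between sets were not tested, since each set has 1 library per group.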

How the results depend on the processing

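For vitamin C, DESeq2 called 6 genes, and 32 with the replicate block, against 0 in limma; no setting called a member. Against stem cells DESeq2 called 71 genes without vitamin C and 137 with it, and with the replicate block 457 (3.87%) and 772 (6.53%). Members called by DESeq2 with the block were 3 for cells without vitamin C minus stem cells (Fos, adjusted p 0.0110, Egr1, 0.0127, and Nr4a1, 0.0130) and 1 for cells with it (Nr4a1, 0.0333). Stem cells share only a number with the other groups, where deviations correlated at 0.730 without and 0.688 with vitamin C. With the block and the other settings as in the report, limma and edgeR called 0 genes in each group comparison. Blocked limma called 5 genes for cells with vitamin C minus stem cells at a pseudocount of 0.1, and 5 with at least 5 CPM. Without stem cell replicate 1 it called 895 genes (member Egr3) for cells without and 1319 (no member) for cells with vitamin C minus stem cells. Without stem cell replicate 2 it called 1040 (member Fos) and 1113 (no member). In those fits the lone stem cell library is assumed to vary like the differentiated cells.

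The members' median without vitamin C minus stem cells was 1.02 at a pseudocount of 2 and 1.75 with at least 5 CPM, a filter that 6 members passed. Leaving out 1 library gave medians of -1.52 to -0.035 for vitamin C, 1.05 to 1.50 for cells without vitamin C and -0.58 to 1.31 for cells with it against stem cells, with 0 genes called in each by limma without the block. For replicate 2 minus replicate 1, a term that needs the block, it gave 0 to 5049 genes and 0 to 6 members called, and medians of 0.29 to 1.28. Members called there were 1 without trend and 4 with DESeq2.

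The medians above with 1 library left out and the ranges below come from limma fits without the block, except between replicates. Where the block is absent, a group left with 1 library is compared across replicate sets. Without 1 library the vitamin C difference changed sign for Fos (-1.06 to 0.14), Jun (-1.63 to 0.027), Junb (-2.72 to 1.44), Egr2 (-2.81 to 0.47), Egr3 (-1.42 to 0.58), Arc (-0.46 to 0.022) and Nr4a1 (-1.46 to 0.93). So did the difference to stem cells of Ier2 without vitamin C (-0.39 to 1.37), and with vitamin C of Fosb (-0.63 to 0.25), Jun (-0.56 to 1.10), Junb (-1.19 to 2.97), Egr2 (-1.64 to 1.65) and Ier2 (-0.98 to 0.78). Between replicates it did so for Fosb (-0.64 to 0.56) and Egr1 (-1.05 to 0.16). Within the sets, Jun and Arc were lower with vitamin C in both. Junb also reversed for vitamin C in edgeR (0.12) and DESeq2 (0.13) without the block, but not with it (-0.52 and -0.57). Egr2 reversed for cells with vitamin C minus stem cells at a pseudocount of 0.1 without the block (-0.50). The cause was not tested. Depth limits Fosb, Egr2, Egr3 and Arc, each with fewer than 40 reads in every replicate 1 library.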
